A study of Mus musculus with 8 samples.

Results

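The interferon regulatory factors (IRFs) are transcription factors, and the ATAC-seq data described here cover the 8 family genes Irf1, Irf2, Irf3, Irf4, Irf5, Irf7, Irf8 and Irf9. In ATAC-seq a transposase cuts open chromatin, so the count of fragments over a region measures how accessible that stretch of DNA was. The regions taken were those that the deposited count table assigns to 1 of these gene symbols, each distinct position once: 28 of 46624 regions. Irf2 and Irf4 had 6 regions each, Irf8 and Irf9 had 4 each, Irf3 had 3, Irf1 and Irf5 had 2 each, and Irf7 had 1. Each gene had 1 region over its own start, called its promoter region here, and the other regions are named by the distance of their centre from the gene start. The table assigns 16 of the 28 to their IRF gene alone, all regions of Irf1, Irf4 and Irf8 among them, and 12 to neighbouring genes as well, which takes in every region of Irf3, Irf5, Irf7 and Irf9 and 2 regions of Irf2.

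The series compares regulatory T cells (Tregs) of male and female visceral adipose tissue (VAT). All cells came from C57BL/6 mice carrying a red fluorescent reporter of Foxp3 (Foxp3RFP), the factor that defines Tregs, and were sorted by flow cytometry as RFP+ Tregs or as RFP- CD4+ T cells. The 4 groups were male VAT Treg, female VAT Treg, male spleen Treg and male VAT CD4, each with 2 libraries made from cells pooled from 3 mice. Ages were not given in the sources used here, and since no label says how the pools of 1 group were separated, the p-values measure the spread between these libraries. The spleen libraries are labelled male, so in the comparison of female VAT Tregs with spleen Tregs sex and tissue cannot be told apart.

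Each library held between 5722254 and 15798875 counts over the regions used. Levels are given as counts per 1000000 (CPM) after scaling by trimmed-mean-of-M (TMM) factors, which lay between 0.907 and 1.06. Male VAT Treg replicate 1 stood apart, with 5.55% of its counts in regions under 1000 bp, called short here, against 3.6% to 4.37% in the other 7 libraries; its part in the results was not tested beyond leaving it out. Male VAT Treg replicate 2 had the smallest share of counts in the 5000 densest regions of 1000 bp or more, called broad here, at 34.8%, against 36.7% to 40.6% in the other libraries. Of the 6 Foxp3 regions, 3 had all Treg libraries above both CD4 libraries, and the share of all regions that do so was not counted. The one at chrX:7582208-7585993 averaged 16.4 ± 3.43 CPM in male VAT Tregs, 30.0 ± 4.05 in female VAT Tregs, 13.6 ± 0.0173 in male spleen Tregs and 1.85 ± 0.44 CPM in male VAT CD4 cells (SD, n = 2 each). The most accessible one, at chrX:7572009-7576644, did not separate them, with 24.6 to 57.3 CPM in the Treg libraries and 32.4 and 36.2 CPM in the CD4 libraries.

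The family shares a DNA-binding domain that reads repeats of GAAA, the core of the elements through which interferons act. IRF3 and IRF7 are switched on by sensors of foreign nucleic acid and turn on type I interferon genes, IRF5 does so for inflammatory cytokines, and IRF9 acts downstream of the interferon receptor. IRF1 is itself induced by interferon and IRF2 often opposes it, while IRF4 and IRF8, the lymphoid and myeloid members, bind weakly alone and pair with ETS factors or with BATF and JUN. In mouse Tregs IRF4 is needed for the effector state and for tissue residence, and Tregs of fat depend on it together with BATF; IRF8 is best known as a factor of dendritic cells, monocytes and B cells.

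The 250 bases before the gene start are shown for 4 members, 3 of them because a searched motif falls there and Irf4 because none does, although its distal regions carry results given below. All lie inside the deposited promoter regions of those genes. The sequences are RefSeq's for GRCm38.p6, read 5′ to 3′ on the gene's strand, with capitals marking a match.
Irf1, chr11:53769764-53770013, + strand: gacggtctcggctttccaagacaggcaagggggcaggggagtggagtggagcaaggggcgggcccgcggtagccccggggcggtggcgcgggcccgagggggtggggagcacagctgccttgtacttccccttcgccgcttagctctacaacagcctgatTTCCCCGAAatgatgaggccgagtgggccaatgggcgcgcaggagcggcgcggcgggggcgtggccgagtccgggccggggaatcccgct
Irf2, chr8:46739495-46739744, + strand: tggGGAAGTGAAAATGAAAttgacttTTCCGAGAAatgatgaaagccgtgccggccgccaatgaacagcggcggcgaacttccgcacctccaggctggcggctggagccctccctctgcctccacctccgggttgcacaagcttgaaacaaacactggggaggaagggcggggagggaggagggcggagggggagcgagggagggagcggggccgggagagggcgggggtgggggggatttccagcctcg
Irf8, chr8:120736108-120736357, + strand: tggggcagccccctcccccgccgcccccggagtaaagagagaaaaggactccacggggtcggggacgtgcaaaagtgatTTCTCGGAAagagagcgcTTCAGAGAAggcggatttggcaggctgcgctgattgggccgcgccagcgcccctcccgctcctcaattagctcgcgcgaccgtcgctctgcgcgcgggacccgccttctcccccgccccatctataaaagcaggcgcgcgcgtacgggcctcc
Irf4, chr13:30748983-30749232, + strand: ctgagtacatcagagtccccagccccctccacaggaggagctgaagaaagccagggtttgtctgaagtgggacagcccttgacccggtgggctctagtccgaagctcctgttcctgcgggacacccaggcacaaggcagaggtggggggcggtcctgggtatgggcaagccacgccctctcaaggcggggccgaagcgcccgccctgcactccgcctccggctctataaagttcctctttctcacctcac
The capitals in Irf1 and Irf8 mark TTCNNNGAA, the GAS element of interferon gamma responses. It starts 90 bases before the gene start of Irf1, and at 171 and 153 bases before that of Irf8. Irf2 held a GAS element 224 bases before its start and, at 241 and 247 bases before it, 1 match each to the core of the interferon response element (GAAA, any 2 bases, GAAA) and to the joint ETS and IRF element (GGAA, any 2 bases, GAAA), which overlap each other. Over the 300-base windows of all 32851 promoters in the table, both strands searched, 8.3% held TTCNNNGAA, 3.44% held the interferon response element core and 2.72% the ETS and IRF element. The AP-1 element TGANTCA, found in 7.81% of all windows, was in none of the 11 windows of the 8 IRF genes.

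Across the family, 5 regions were called in at least 1 of the 4 comparisons, all of Irf8 and Irf4 and all away from their promoters. The share of all regions called in at least 1 comparison was not counted, and the shares for each comparison are given below. Only 1 of the calls, between the sexes at the Irf8 region 20.9 kb before the start, held under all 15 alternatives described below. The Irf8 gene had 3 regions upstream of its start that were each called higher in male VAT Tregs against at least 1 other group, and Irf4 had 2 regions that were higher in male VAT Tregs than in male VAT CD4 cells. None of the 8 promoter regions was called in any of the 4 comparisons. A call here is an adjusted p under 0.05 in edgeR's quasi-likelihood test, adjusted by Benjamini-Hochberg over 45709 regions, in 1 fit of all 8 libraries.

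Between male and female VAT Tregs, 1 of the 28 IRF regions was called higher in males, where 2.04% of all regions were called higher, and 0 were called lower, where 1.21% were. The call was on 1 of 17 broad IRF regions, where 0.572% of all broad regions were called higher, and 0 of 11 short ones were called, where 4.68% of all short regions were. At an unadjusted p under 0.05, 3 IRF regions were higher and 5 lower in males. Both male libraries lay above both female libraries at 10 IRF regions and below both at 6, against 20.8% and 20.5% of all regions. The median log2 fold change of the 28 was -0.05, against 0.01 over all regions.

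Male VAT Tregs against male spleen Tregs gave 2 regions called higher, with 4.64% of all regions called higher, and 0 called lower, with 2.09% called lower. Both calls were on short regions, 2 of 11 against 10.2% of all short regions, while 0 of 17 broad ones were called higher, against 1.54%. At an unadjusted p under 0.05 there were 3 higher and 4 lower. Both male VAT Treg libraries lay above both spleen libraries at 5 IRF regions and below both at 9, against 22.7% and 23.1% of all regions. Female VAT Tregs against male spleen Tregs gave 0 regions called higher and 1 called lower, where 1.18% and 0.197% of all regions were. The lower one was 1 of 17 broad regions, against 0.147% of all broad regions, and 0 of 11 short ones were lower, against 0.287%. At an unadjusted p under 0.05, 0 IRF regions were higher there by edgeR and 2 were lower. Both female libraries lay above both spleen libraries at 1 IRF region and below both at 6, against 20.9% and 21% of all regions.

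The largest number of calls came between male VAT Tregs and male VAT CD4 cells, with 4 of 28 higher against 5.18% of all regions, and 0 lower against 2.51%. At an unadjusted p under 0.05, 5 were higher and 1 lower. Both male VAT Treg libraries lay above both CD4 libraries at 7 IRF regions and below both at 4, against 21% and 20.7% of all regions. Short regions were called more often than broad ones over the whole table: 10.3% of short regions and 2.35% of broad regions were higher in male VAT Tregs than in CD4 cells. Of the 11 short IRF regions 3 were called higher in that comparison, and of the 17 broad ones 1 was. The male comparisons share the male VAT Treg libraries and the spleen comparisons share the spleen libraries, so their calls are not independent of one another.

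**Figure D1:**
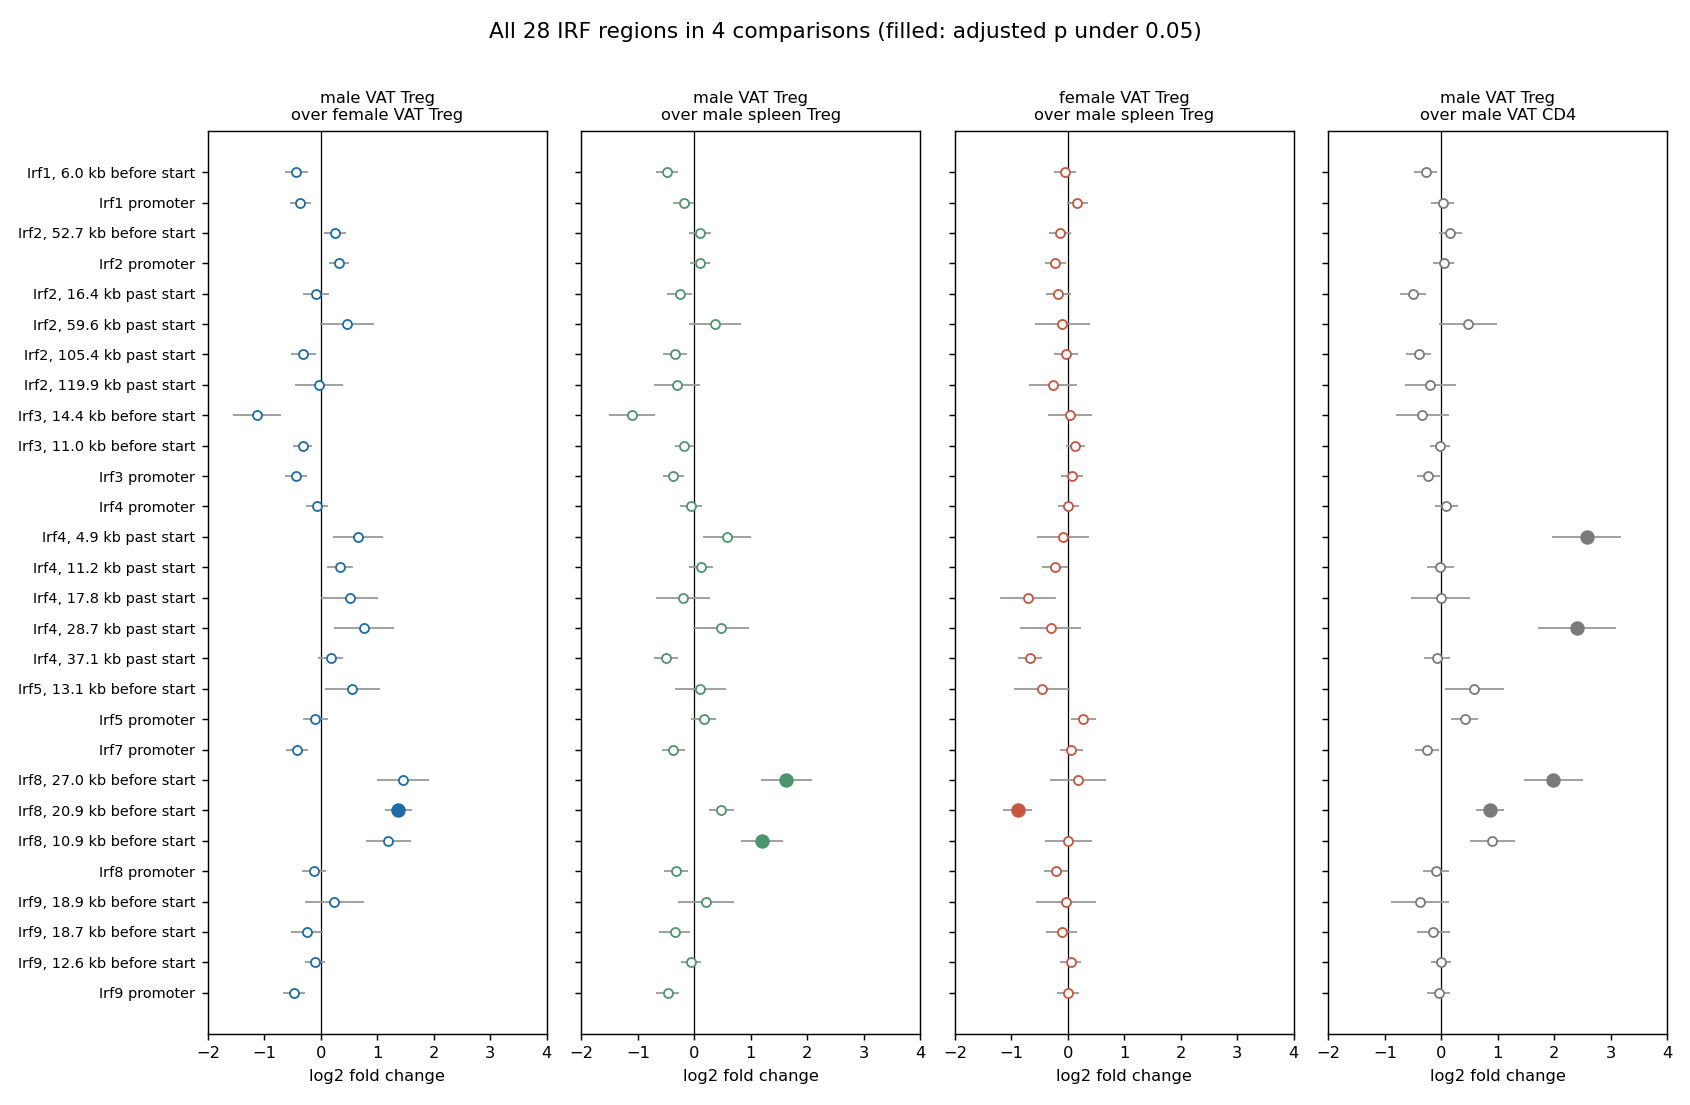
Log2 fold change (horizontal axis) of all 28 IRF regions in the 4 comparisons; points are edgeR estimates, bars are approximate standard errors, and filled points have an adjusted p under 0.05. The filled points belong to Irf8 regions upstream of the gene and to 2 short Irf4 regions, and the 8 promoter regions stay within 0.5 of 0 in all panels.

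Irf8 encodes a factor that pairs with PU.1 in B and myeloid cells and that sets the fate of one dendritic cell lineage. The gene lies at chr8:120736358-120756694 on the + strand of GRCm38, and its 4 regions were the promoter region and 3 regions upstream that overlap no annotated gene body. The upstream regions lie 27.0 kb, 20.9 kb and 10.9 kb before the gene start.

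The middle one, at chr8:120714047-120716844 and 2797 bp wide, was the one IRF region called between the sexes. It had 19.3 and 13.3 CPM in the male VAT Treg libraries, against 6.48 and 6.22 CPM in the female VAT Treg libraries. In male spleen Tregs it had 10.9 and 12.5 CPM, and in male VAT CD4 cells 10.6 and 7.79 CPM. The 2 female libraries were the lowest of the 8 and the 2 male VAT Treg libraries the highest, and no 2 groups overlapped. How many of all regions show that order was not counted. Male VAT Tregs were 2.59-fold higher than female VAT Tregs (log2 fold change 1.37 ± 0.24, adjusted p = 6.59e-06), a call kept under each of the 15 alternatives run, which leave out each library among other changes, with log2 fold changes of 1.07 to 1.6.

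Against the remaining groups the same region was less settled. Female VAT Tregs were lower than male spleen Tregs (log2 fold change -0.89 ± 0.25, adjusted p = 0.0289), while male VAT Tregs differed from spleen Tregs by 0.48 ± 0.22 (adjusted p = 0.2). The female call was lost without any 1 of the 4 libraries in it, at adjusted p = 0.0819 and 0.337 without spleen replicates 1 and 2 and 0.369 and 0.333 without female replicates 1 and 2. Male VAT Tregs were 1.81-fold higher than male VAT CD4 cells (0.86 ± 0.24, adjusted p = 0.0104). That call was lost without CD4 replicate 2 (adjusted p = 0.259) or male VAT Treg replicate 1 (adjusted p = 0.352), with TMM factors from short regions (0.16) and by DESeq2's Wald test (0.0787). In bulk sorted cells, more cells with an open region and a region more open per cell cannot be told apart.

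The most distant Irf8 region, at chr8:120709278-120709467 and 189 bp wide, had 5.13 and 3.95 CPM in male VAT Tregs, 1.70 and 1.64 CPM in female VAT Tregs, 0.485 and 2.15 CPM in male spleen Tregs and 0.963 and 1.30 CPM in male VAT CD4 cells. Both male VAT Treg libraries lay above all 6 others, and the share of all regions that do so was not counted. The values are low: the fragments counted were 81 and 37 in male VAT Tregs, against 17 and 14 in female VAT Tregs, 4 and 36 in spleen Tregs and 5 and 9 in CD4 cells. Male VAT Tregs were 3.1-fold higher than spleen Tregs (log2 fold change 1.63 ± 0.45, adjusted p = 0.0083) and 3.96-fold higher than CD4 cells (1.98 ± 0.52, adjusted p = 0.00467). Against female VAT Tregs the log2 fold change of 1.45 ± 0.46 had an adjusted p of 0.0508 and was not called; it was called in 6 of the 15 alternatives, at adjusted p of 0.0355 to 0.0495. The size of the spleen difference rested on the spleen libraries, with a log2 fold change of 3.21 (adjusted p = 0.00177) without spleen replicate 2 and of 1.08 without spleen replicate 1, where the call was lost (adjusted p = 0.286). It was also lost without male VAT Treg replicate 1 (1.43, adjusted p = 0.153) and by the Wald test (adjusted p = 0.102). The CD4 call was lost without CD4 replicate 1 (1.81, adjusted p = 0.0826) or male VAT Treg replicate 1 (1.77, adjusted p = 0.123) and by the Wald test (0.0608).

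The nearest of the upstream regions, at chr8:120725324-120725555 and 231 bp wide, had 7.10 and 3.95 CPM in male VAT Tregs, 3.19 and 1.64 CPM in female VAT Tregs, 2.42 and 2.45 CPM in male spleen Tregs and 2.31 and 3.61 CPM in male VAT CD4 cells. Here too both male VAT Treg libraries were the highest, an order not counted over all regions. Replicate 2 of the male VAT Tregs stood only a little above the highest CD4 library. Male VAT Tregs were 2.3-fold higher than spleen Tregs (log2 fold change 1.20 ± 0.38, adjusted p = 0.0288). The log2 fold change was 1.20 ± 0.39 against female VAT Tregs (adjusted p = 0.0593) and 0.90 ± 0.40 against CD4 cells (adjusted p = 0.186), neither called; of the 15 alternatives 4 called the sex difference (adjusted p = 0.0103 to 0.0475) and 1, without male VAT Treg replicate 2, the CD4 difference (0.0432). The spleen call was lost without spleen replicate 1 or 2 (adjusted p = 0.131 and 0.166), and without male VAT Treg replicate 1 the log2 fold change was 0.69 (adjusted p = 0.445). It was also lost with the replicate number as a block (adjusted p = 0.0621), with TMM factors from short regions (0.0916) and by the Wald test (0.183).

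The Irf8 promoter region, at chr8:120734467-120738100 and 3633 bp wide, did not follow the upstream regions. It had 14.3 and 12.3 CPM in male VAT Tregs, 12.2 and 16.9 CPM in female VAT Tregs, 16.2 and 17.1 CPM in male spleen Tregs and 15.2 and 13.6 CPM in male VAT CD4 cells. The male and female VAT Treg libraries overlapped. The log2 fold change was -0.12 between the sexes (95% interval -0.54 to 0.31) and -0.32 between male VAT and spleen Tregs (-0.74 to 0.09), so an increase of the size seen 20.9 kb upstream lies outside both intervals.

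The unequal change within Irf8 was tested directly, in a test added after the values were seen (edgeR's diffSpliceDGE, over the regions of 13061 genes). The Irf8 regions differed among themselves between male and female VAT Tregs (adjusted p = 0.0103), where 3.58% of genes were called, between male VAT and spleen Tregs (adjusted p = 0.00459, 12.3% of genes) and between male VAT Tregs and CD4 cells (adjusted p = 0.0182, 15% of genes). They did not pass between female VAT and spleen Tregs (adjusted p = 0.66, 1.34% of genes). Without male VAT Treg replicate 1 the 3 calls were lost, at adjusted p = 0.361, 0.13 and 0.158, and without replicate 2 they stood at 0.00243, 0.00138 and 0.00857. With all libraries, no single Irf8 region passed against the others of the gene in any comparison, where 0.703%, 2.72%, 3.36% and 0.22% of all regions passed between the sexes, for male VAT against spleen Tregs, for male VAT Tregs against CD4 cells and for female VAT against spleen Tregs. The promoter region passed between the sexes without male VAT Treg replicate 2, at -0.90 log2 units from the rest of the gene's regions (adjusted p = 0.0468, against 0.122 with all libraries).

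Markers of the cells in which Irf8 is usually studied were also summed, and their part in the Irf8 results was not tested. Over the 19 regions of 6 of 11 myeloid marker genes, the summed level was 246.5 and 196.5 CPM in male VAT Tregs, against 252.5 and 254.1 in female VAT Tregs, 254.7 and 253.9 in spleen Tregs and 216.3 and 247.2 CPM in CD4 cells. Csf1r, Adgre1, Lyz2, Mrc1 and C1qa had no region in the table. The 18 regions of 8 of 10 dendritic cell markers summed to 184.3 and 157.9 CPM in male VAT Tregs, against 171.0 and 175.1 in female VAT Tregs, 177.4 and 176.1 in spleen Tregs and 148.7 and 170.2 CPM in CD4 cells, with none for Clec9a and Ly6d. The 11 regions of 7 of 9 B cell markers summed to 132.4 and 95.3 CPM in male VAT Tregs, against 136.6 and 134.0 in female VAT Tregs, 138.3 and 135.9 in spleen Tregs and 113.6 and 120.7 CPM in CD4 cells, with none for Ms4a1 and Blnk. The libraries of male VAT Tregs overlapped or lay below those of the other groups in the myeloid and B cell sums, while in the dendritic sum replicate 1 was the highest of the 8 libraries and replicate 2 the second lowest. Between male and female VAT Tregs, 0 regions of the 3 lists were called higher and 1, of the macrophage marker Cd68, lower. Against spleen Tregs 1 was higher, a short Xcr1 region (log2 fold change 2.15 ± 0.54, adjusted p = 0.00275, and 0.543 without male VAT Treg replicate 1), and 2 regions of Cebpa were lower. Against CD4 cells Zbtb46, Cd209a and Blk were each higher at 1 region and Cebpa lower at 1. In female VAT against spleen Tregs 0 of these regions were called in either direction. The 11 regions of CD8 and NK markers had 0 calls by edgeR in every comparison, and the 12 regions of adipocyte markers had 2 lower in male VAT than in spleen Tregs, both of Plin1, and 0 otherwise.

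**Figure D2:**
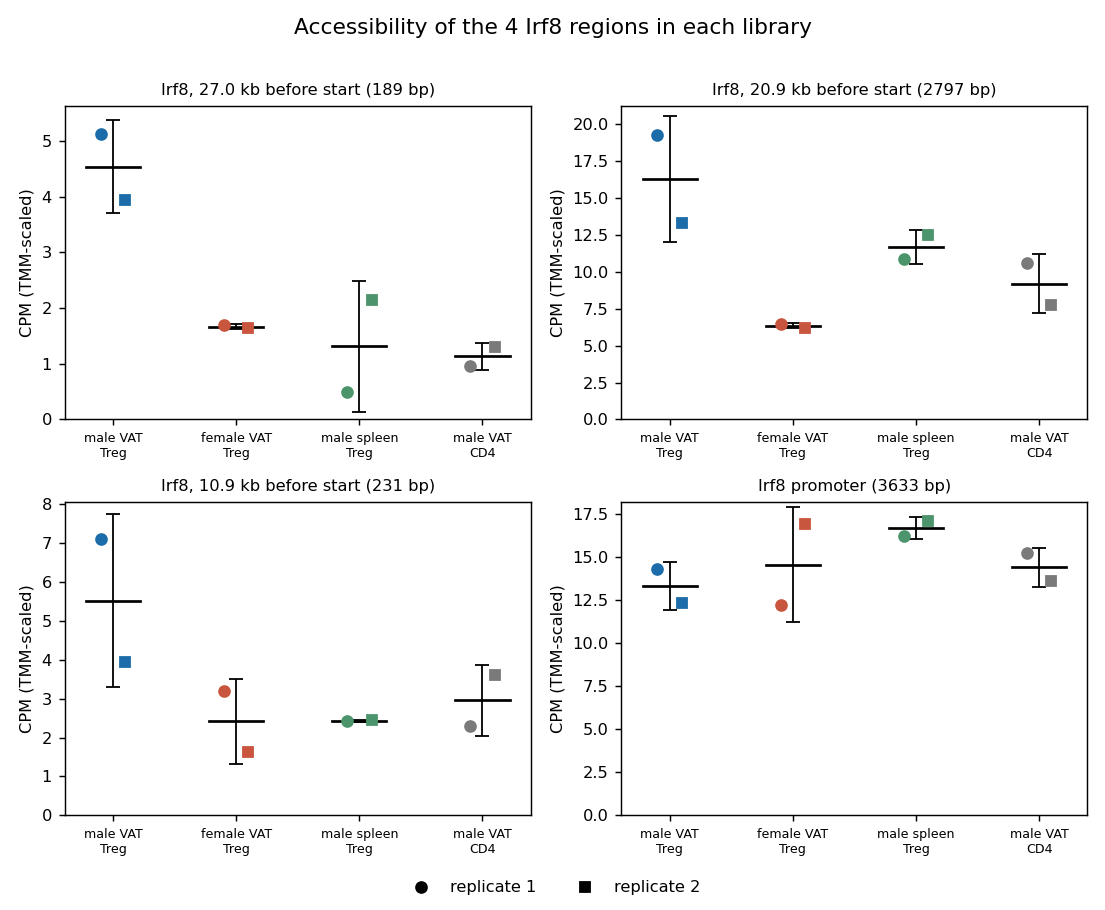
CPM (vertical axis, from 0) of the 4 Irf8 regions in each library, by group; circles and squares are replicates 1 and 2, the bar is the mean and the error bar the SD of 2 libraries. In the 3 upstream regions both male VAT Treg libraries lie above all others, at 13.3 CPM or more in the region 20.9 kb before the start, while at the promoter the groups lie between 12.2 and 17.1 CPM. The share of all regions with both male VAT Treg libraries above all others was not counted.

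Irf4 encodes the member that effector Tregs need, induced by T cell receptor signals and acting with BATF and JUN. The gene lies at chr13:30749233-30766981 on the + strand and had its promoter region, 2 regions inside the gene and 3 downstream. The promoter region, at chr13:30746610-30751805, had 29.3 and 25.3 CPM in male VAT Tregs, against 28.1 and 29.3 in female VAT Tregs, 29.6 and 27.5 in male spleen Tregs and 24.7 and 26.5 CPM in male VAT CD4 cells. These levels overlapped between male VAT Tregs and every other group. The log2 fold change of male VAT Tregs was -0.07 against female VAT Tregs (95% interval -0.44 to 0.30) and 0.09 against CD4 cells (-0.29 to 0.48).

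A short region inside the gene, 4.9 kb past its start at chr13:30754087-30754278, was called higher in male VAT Tregs than in male VAT CD4 cells. It had 4.50 and 2.35 CPM in male VAT Tregs, against 2.09 and 2.35 in female VAT Tregs, 2.06 and 2.57 in male spleen Tregs and 0.770 and 0.433 CPM in male VAT CD4 cells. All 6 Treg libraries lay above both CD4 libraries, and the 3 Treg groups overlapped one another. The share of all regions with all Treg libraries above both CD4 libraries was not counted. The CD4 values rest on 4 and 3 fragments, against 71 and 22 in male VAT Tregs. Male VAT Tregs were 5.93-fold higher than CD4 cells (log2 fold change 2.57 ± 0.61, adjusted p = 0.00106), a call lost without CD4 replicate 2 (2.17, adjusted p = 0.0761) or male VAT Treg replicate 1 (1.99, adjusted p = 0.134). Female VAT and spleen Tregs were not tested against CD4 cells. Among the Treg groups, the log2 fold change of male VAT Tregs was 0.66 ± 0.45 over female VAT Tregs (adjusted p = 0.579) and 0.58 ± 0.43 over spleen Tregs (adjusted p = 0.515).

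Another short region, 28.7 kb past the start at chr13:30777834-30777961, lies downstream of the gene and overlaps no annotated gene body. It had 2.53 and 2.77 CPM in male VAT Tregs, against 2.09 and 0.939 in female VAT Tregs, 1.33 and 2.33 in male spleen Tregs and 0.385 and 0.577 CPM in male VAT CD4 cells. Again the CD4 libraries were the lowest 2 of the 8, on 2 and 4 fragments, against 40 and 26 in male VAT Tregs. How often that occurs over all regions was not counted. Male VAT Tregs were 5.26-fold higher than CD4 cells (log2 fold change 2.40 ± 0.69, adjusted p = 0.0121), a call lost without CD4 replicate 1 (adjusted p = 0.139), CD4 replicate 2 (0.0858) or male VAT Treg replicate 1 (0.0623). Against female VAT and spleen Tregs the log2 fold changes were 0.77 ± 0.53 and 0.47 ± 0.50 (adjusted p = 0.58 and 0.679).

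The remaining Irf4 regions were not called in any comparison. The broad region 11.2 kb past the start held 8.78 to 14.4 CPM over the 8 libraries and the short region 17.8 kb past it 0.939 to 2.93 CPM. The broad region 37.1 kb past the start was lower in both VAT Treg groups than in spleen Tregs without passing the adjustment, with 14.4 and 10.8 CPM in male VAT Tregs and 12.8 and 9.62 CPM in female VAT Tregs, against 19.5 and 16.6 CPM in spleen Tregs. Its log2 fold changes were -0.50 ± 0.21 in males (adjusted p = 0.158) and -0.67 ± 0.22 in females (adjusted p = 0.112).

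Tested against each other, the Irf4 regions changed unequally between male VAT Tregs and CD4 cells (diffSpliceDGE adjusted p = 0.00079), also without male VAT Treg replicate 1 (0.0266) or replicate 2 (0.00102). By the same test 15% of all genes were called in that comparison. The region 4.9 kb past the Irf4 start stood 2.43 log2 units above the rest of the gene's regions (adjusted p = 0.00392, 3.36% of all regions called). The region 28.7 kb past the start stood 2.25 units above the rest (adjusted p = 0.0218). Without male VAT Treg replicate 1 these single regions had adjusted p = 0.194 and 0.0705, and without replicate 2 0.00177 and 0.0906. In the other comparisons the Irf4 regions did not pass, with adjusted p of 0.811 between the sexes and 0.346 and 0.821 for male and female VAT Tregs against spleen Tregs.

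**Figure D3:**
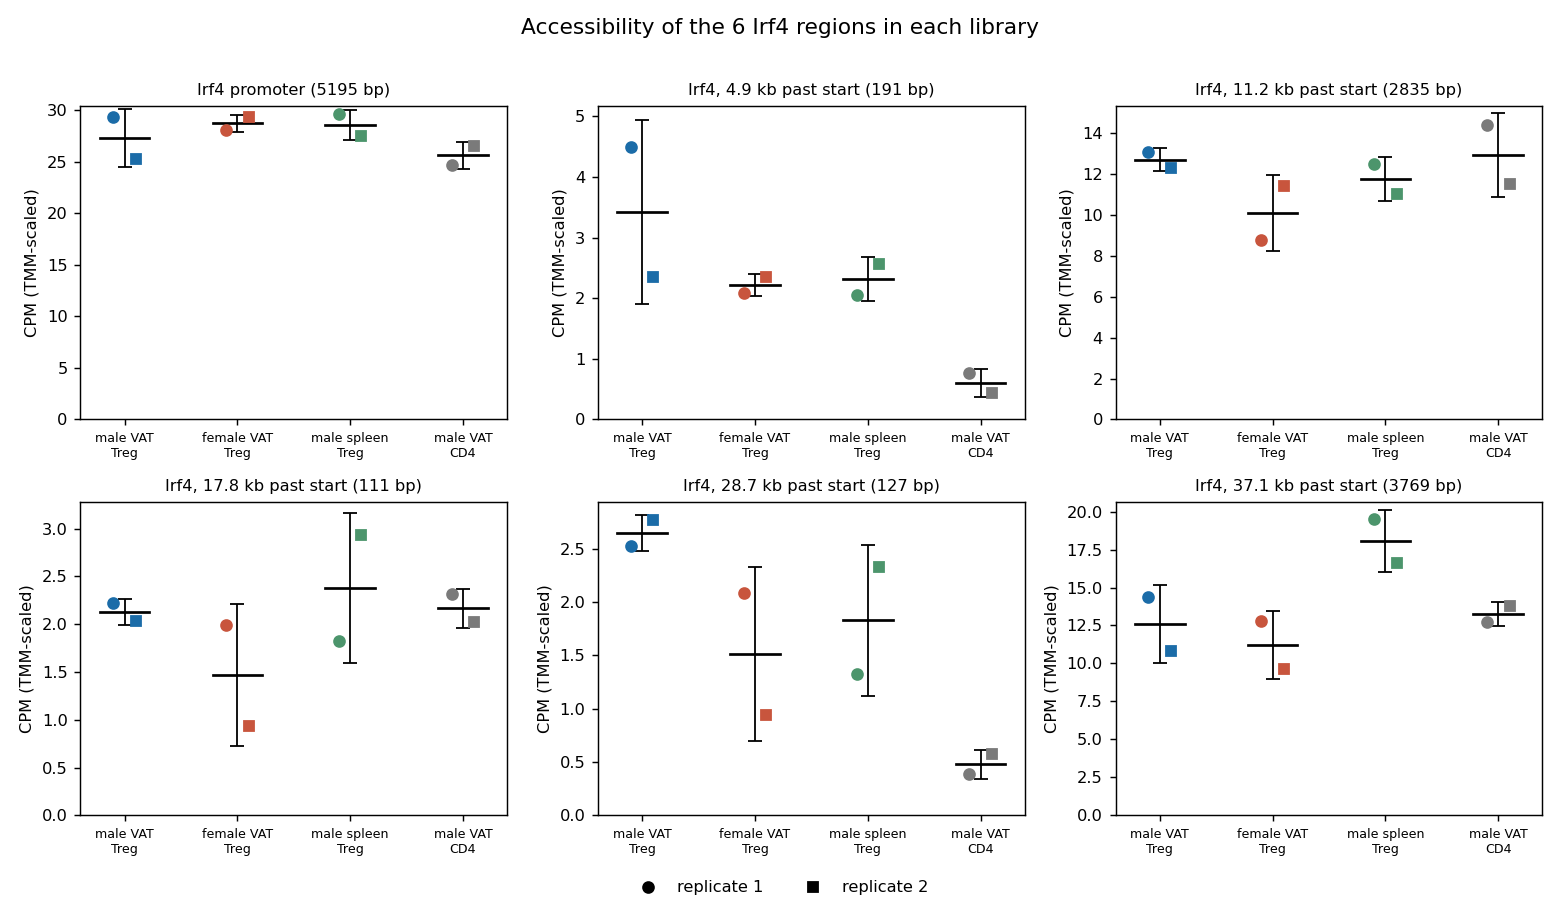
CPM (vertical axis, from 0) of the 6 Irf4 regions in each library, by group; circles and squares are replicates 1 and 2, the bar is the mean and the error bar the SD of 2 libraries. Both CD4 libraries lie below all 6 Treg libraries in the regions 4.9 kb and 28.7 kb past the start, at 0.385 to 0.770 CPM, while at the promoter region 1 CD4 library lies below the Treg libraries and 1 among them. The share of all regions with both CD4 libraries below all Treg libraries was not counted.

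The promoter regions of the family held counts in every library, and none was called by edgeR or DESeq2 in any comparison. Per kb of region, the promoter of Irf2 was the most accessible, at 9.08 ± 1.19 CPM per kb (SD over all 8 libraries), and stood above that of Irf1 in 8 of 8 libraries. Below it came Irf1 at 6.35 ± 1.09, Irf3 at 6.20 ± 0.948, Irf9 at 5.76 ± 1.29, Irf4 at 5.30 ± 0.366, Irf7 at 4.62 ± 0.780, Irf5 at 4.38 ± 0.928 and Irf8 at 4.05 ± 0.540 CPM per kb. The range of Irf2 over the libraries lay above those of the other genes except Irf9, whose highest library, at 7.93 CPM per kb, passed the lowest of Irf2, at 7.71. Among the other 7 genes, Irf4 and Irf8 had separate ranges and all other pairs overlapped. At an unadjusted p under 0.05, edgeR had 3 promoter regions lower in male VAT Tregs than in those of females and 1 lower than in spleen Tregs, and DESeq2 had 1 and 0. Both tools had 0 in the other comparisons.

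**Figure D4:**
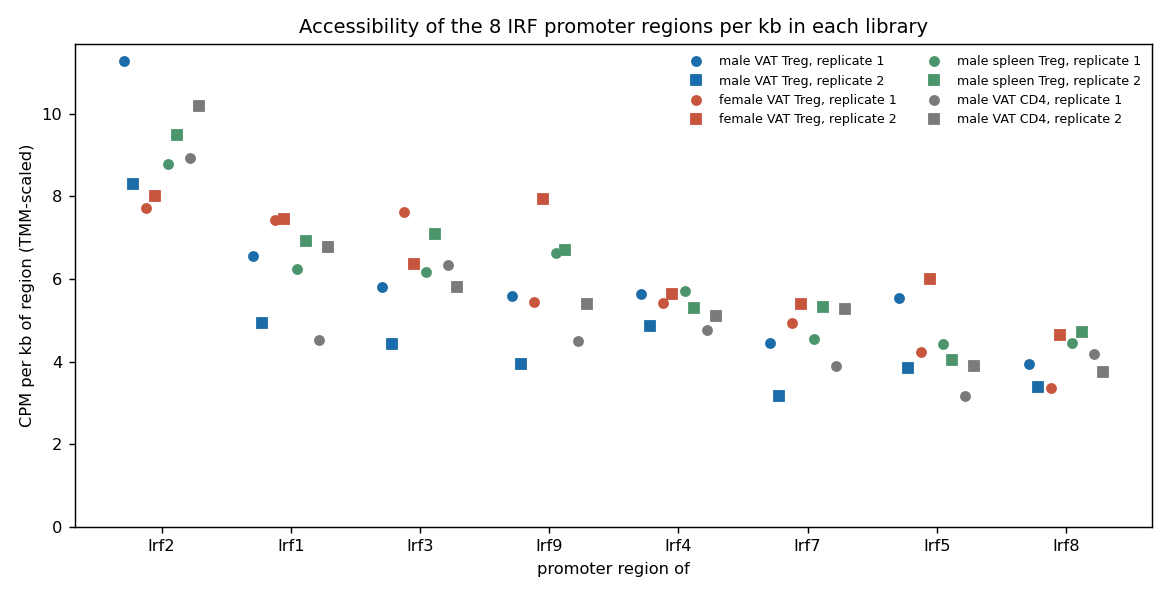
CPM per kb of region (vertical axis, from 0) of the 8 IRF promoter regions (horizontal axis, in order of their mean) in each of the 8 libraries; colours are groups, and circles and squares are replicates 1 and 2. All libraries of Irf2 lie at 7.71 CPM per kb or more, a level that 1 library of Irf9 also passes, at 7.93. All libraries of Irf4 (4.75 or more) lie above those of Irf8 (4.70 or less), and the other pairs among these 7 genes overlap.

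Irf1, an activator of interferon-stimulated and antigen presentation genes, had 26.8 and 20.2 CPM at its promoter region (chr11:53767907-53771994) in male VAT Tregs, against 30.3 and 30.4 in female VAT Tregs, 25.5 and 28.3 in male spleen Tregs and 18.5 and 27.7 CPM in male VAT CD4 cells. Both male VAT Treg libraries lay below both female ones, but the log2 fold change of -0.36 ± 0.19 was not called (adjusted p = 0.408). The region 6.0 kb before the start had 22.2 and 13.3 CPM in male VAT Tregs, against 23.9 and 24.5 CPM in female VAT Tregs, 24.9 and 25.4 in spleen Tregs and 21.6 and 22.2 CPM in CD4 cells. Replicate 2 of the male VAT Tregs alone was low there; the log2 fold changes of -0.43 against female and -0.48 against spleen Tregs had adjusted p of 0.298 and 0.132, and without replicate 1 they were -0.86 and -0.91 (adjusted p = 0.0179 and 0.00846).

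Irf2, the partner that often represses what IRF1 activates, had 58.1 and 42.7 CPM at its promoter region (chr8:46737006-46742157) in male VAT Tregs, against 39.7 and 41.3 in female VAT Tregs, 45.2 and 48.8 in male spleen Tregs and 46.0 and 52.4 CPM in male VAT CD4 cells. It was the one IRF promoter with both male VAT Treg libraries above both female ones, at a log2 fold change of 0.32 ± 0.18 that was not called (adjusted p = 0.435). Its other 5 regions, 1 of them 52.7 kb before the start, 3 inside the gene and 1 downstream, were not called in any comparison, with log2 fold changes between -0.51 and 0.47.

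Irf3 and Irf7, the mediators of type I interferon induction, had lower promoter levels in male VAT Tregs that did not pass the adjustment. The Irf3 promoter region (chr7:44995766-44999481) had 21.6 and 16.4 CPM in male VAT Tregs, against 28.3 and 23.6 CPM in female VAT Tregs, 22.9 and 26.3 in spleen Tregs and 23.5 and 21.6 CPM in CD4 cells. The only Irf7 region, over its start (chr7:141264069-141268834), had 21.2 and 15.1 CPM in male VAT Tregs, against 23.5 and 25.7 CPM in female VAT Tregs, 21.7 and 25.3 in spleen Tregs and 18.5 and 25.1 CPM in CD4 cells. The male VAT Treg libraries lay below the female and spleen ones at both genes. Between the sexes the log2 fold changes were -0.44 ± 0.20 for Irf3 (adjusted p = 0.262) and -0.42 ± 0.20 for Irf7 (adjusted p = 0.302). The Irf3 region with the highest level, 11.0 kb before its start, overlaps Prmt1 and Gm15545 and held 65.8 and 41.7 CPM in male VAT Tregs, against 69.2 and 65.4 in female VAT Tregs, 56.1 and 66.2 in spleen Tregs and 48.1 and 62.2 CPM in CD4 cells; it was called lower in males only without male VAT Treg replicate 1 (log2 fold change -0.69, adjusted p = 0.0182).

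A short region 14.4 kb before the Irf3 start, inside Prmt1 at chr7:44983202-44983314, had the lowest fold change of the 28 regions between the sexes. It had 2.15 and 1.39 CPM in male VAT Tregs, against 3.99 and 3.99 CPM in female VAT Tregs, 3.52 and 4.24 in spleen Tregs and 2.31 and 2.31 CPM in CD4 cells. The male VAT libraries, Treg and CD4, were the 4 lowest, on 12 to 34 fragments each. The log2 fold changes of male VAT Tregs were -1.13 ± 0.42 against female VAT Tregs (adjusted p = 0.127) and -1.10 ± 0.41 against spleen Tregs (adjusted p = 0.0845), and neither was called.

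Irf5, a factor of inflammatory cytokine genes in macrophages, had 16.2 and 11.2 CPM at its promoter region (chr6:29525445-29528368) in male VAT Tregs, against 12.4 and 17.5 in female VAT Tregs, 12.9 and 11.8 in spleen Tregs and 9.24 and 11.4 CPM in CD4 cells. The replicates of both VAT Treg groups were spread as widely as the groups. Its other region, 13.1 kb before the start, held 1.35 to 2.91 CPM and was not called.

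Irf9, a DNA-binding subunit of the complex formed after type I interferon, had 20.3 and 14.3 CPM at its promoter region (chr14:55602294-55605933) in male VAT Tregs, against 19.8 and 28.9 in female VAT Tregs, 24.1 and 24.4 in spleen Tregs and 16.4 and 19.6 CPM in CD4 cells. Male VAT Tregs lay below spleen Tregs in both libraries and overlapped the female libraries. The log2 fold change was -0.47 ± 0.20 in both comparisons (adjusted p = 0.147 against spleen Tregs and 0.219 against female VAT Tregs), and without male VAT Treg replicate 1 it was -0.76 in both (adjusted p = 0.0403 and 0.0492). The highest of the regions assigned to Irf9, 12.6 kb before its start, overlaps Psme2 and Rnf31 and held 54.5 and 36.4 CPM in male VAT Tregs, against 48.3 and 50.0 in female VAT Tregs, 48.4 and 46.8 in spleen Tregs and 41.8 and 49.8 CPM in CD4 cells. Both short regions further upstream, in Emc9, held 1.28 to 8.84 CPM and were not called.

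Around the IRFs, genes of the pathway were read from lists, and most of their counts changed without male VAT Treg replicate 1. Without it, the shares of all regions called higher and lower were 0.509% and 2.37% between male and female VAT Tregs, 1.55% and 2.15% between male VAT and spleen Tregs, 1.43% and 0.32% between female VAT and spleen Tregs, and 1.83% and 1.73% between male VAT Tregs and CD4 cells. With all libraries the median log2 fold change over all regions lay between -0.02 and 0.01 in each comparison. Between male and female VAT Tregs 2.04% of all regions were then called higher and 1.21% lower. The shares called lower were 2.09% and 0.197% in male and female VAT against spleen Tregs, and 2.51% against CD4 cells. Of 89 regions of 15 interferon receptor, JAK, STAT and SOCS genes, 17 (19.1%) were higher, against 4.64% of all regions, and 1 lower in male VAT than in spleen Tregs (median log2 fold change 0.08), and 3 and 1 without that library (median -0.08). In female VAT against spleen Tregs 7 (7.87%) were higher, against 1.18% of all regions, and 0 lower. Between the sexes 1 was higher and 0 lower in males, and 0 and 1 without that library; against CD4 cells 12 (13.5%) were higher and 6 (6.74%) lower, where 5.18% and 2.51% of all regions were, and 1 and 7 without it.

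Ifnar1, a chain of the type I interferon receptor, averaged 17.3 ± 4.80 CPM in male VAT Tregs, against 10.2 ± 1.86 CPM in female VAT Tregs (log2 fold change 0.78 ± 0.23, adjusted p = 0.0304), a call lost without male VAT Treg replicate 1 (0.45, adjusted p = 0.483). Against CD4 cells, male VAT Tregs fell by 2.58 ± 0.41 on the log2 scale at a region of the kinase gene Jak1 and by 2.19 ± 0.40 at one of Ifngr1, a chain of the interferon gamma receptor (adjusted p = 1.29e-07 and 7.24e-06).

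Of 79 regions of 19 innate sensors and adaptors, 19 (24.1%) were higher, against 4.64% of all regions, and 0 lower in male VAT than in spleen Tregs (median 0.12), and 10 and 0 without male VAT Treg replicate 1. They belonged to 3 genes: Tnfaip3, an inhibitor of NF-kB signalling, Tank and Traf3. The Tnfaip3 region at chr10:19001610-19002603 averaged 11.7 ± 5.23 CPM in male VAT Tregs and 1.44 ± 0.665 CPM in spleen Tregs (log2 fold change 2.93 ± 0.32, adjusted p = 1.96e-15, and 2.36, 3e-06, without that library). In female VAT Tregs 9 regions (11.4%, against 1.18% of all regions), all of Tnfaip3, were higher than in spleen Tregs and 0 lower. Between the sexes 1 Tnfaip3 region was higher in males and 0 lower, and 0 and 0 without that library. Against CD4 cells 14 (17.7%, against 5.18% of all regions) were higher and 0 lower, and 3 and 0 without it. Among them was the gene of TBK1, the kinase that activates IRF3, with 23.7 ± 0.961 CPM in male VAT Tregs and 8.47 ± 2.71 CPM in CD4 cells (1.46 ± 0.23, adjusted p = 1.01e-07, and 2.45e-05 without it).

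Downstream, the 68 regions of 30 interferon-stimulated genes had calls in both directions. Between male and female VAT Tregs 1 was higher and 3 were lower, between male VAT and spleen Tregs 4 and 4, between female VAT and spleen Tregs 1 and 0, and between male VAT Tregs and CD4 cells 4 and 1, with medians of -0.10, -0.20, 0.01 and -0.10. The shares higher and lower were 1.47% and 4.41% between the sexes, where 2.04% and 1.21% of all regions were called, and 5.88% each between male VAT and spleen Tregs, where 4.64% and 2.09% were. Against CD4 cells 5.88% were higher and 1.47% lower, where 5.18% and 2.51% of all regions were. Between female VAT and spleen Tregs 1.47% were higher, where 1.18% of all regions were. Without male VAT Treg replicate 1 these counts were 0 and 3, 1 and 5, 1 and 0, and 3 and 2. Isg15, a ubiquitin-like interferon product, averaged 13.3 ± 3.46 CPM in male VAT Tregs, against 22.3 ± 1.87 CPM in female VAT Tregs (log2 fold change -0.72 ± 0.21, adjusted p = 0.024, and 0.00573 without that library). Tapbp, whose product helps to load MHC class I, fell by 0.98 ± 0.24 on the log2 scale in males (adjusted p = 0.00509, and 0.0175 without it). The Igtp region, of an interferon-induced GTPase, averaged 4.96 ± 2.94 CPM in male VAT Tregs, against 1.65 ± 0.344 CPM in female VAT Tregs (1.61 ± 0.45, adjusted p = 0.0187), a call lost without that library (0.79, adjusted p = 0.648).

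Among 130 regions of 16 transcription factors known to bind beside IRFs, 1 was higher and 0 lower in male against female VAT Tregs, 7 and 2 in male VAT against spleen Tregs, 2 and 0 in female VAT against spleen Tregs, and 10 and 4 in male VAT Tregs against CD4 cells. The shares higher, 0.769%, 5.38%, 1.54% and 7.69% in that order, stood against 2.04%, 4.64%, 1.18% and 5.18% of all regions, and the medians were 0.06, -0.01, -0.03 and 0.06. The shares lower, 0%, 1.54%, 0% and 3.08%, stood against 1.21%, 2.09%, 0.197% and 2.51%. Without male VAT Treg replicate 1 the counts were 0 and 2, 1 and 0, 2 and 1, and 2 and 3. Ets1, an ETS factor, had a region with 9.07 ± 1.06 CPM in male VAT Tregs and 4.09 ± 0.384 CPM in spleen Tregs (log2 fold change 1.17 ± 0.27, adjusted p = 0.000874, and 0.0402 without that library). The sex difference was at Ikzf3, the gene of Aiolos, with 3.79 ± 2.34 CPM in male VAT Tregs, against 1.22 ± 0.394 CPM in female VAT Tregs (1.66 ± 0.50, adjusted p = 0.0356), and was lost without that library (0.79, adjusted p = 0.692).

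Genes tied to IRF4 and BATF in Tregs were read in the same way. Of 152 regions of 16 genes, 15 were higher and 0 lower in male against female VAT Tregs, 45 and 2 in male VAT against spleen Tregs, 11 and 0 in female VAT against spleen Tregs, and 45 and 4 in male VAT Tregs against CD4 cells, with medians of 0.27, 0.45, 0.16 and 0.67. The shares higher were 9.87%, 29.6%, 7.24% and 29.6% in that order, against 2.04%, 4.64%, 1.18% and 5.18% of all regions. The shares lower were 0%, 1.32%, 0% and 2.63%, against 1.21%, 2.09%, 0.197% and 2.51%. Without male VAT Treg replicate 1 the counts were 2 and 1, 8 and 2, 10 and 0, and 9 and 2, and the medians -0.01, 0.10, 0.16 and 0.32. Klrg1, a receptor of effector Tregs, had a region with 11.7 ± 6.25 CPM in male VAT Tregs, against 1.55 ± 0.788 CPM in female VAT Tregs (log2 fold change 2.95 ± 0.37, adjusted p = 1.53e-11, and 0.00251 without that library). Il10, the suppressive cytokine gene, and Rora, a nuclear receptor gene, were higher in males by 2.03 ± 0.41 and 1.35 ± 0.28 (adjusted p = 0.000201 and 0.0003), calls lost without it (adjusted p = 0.466 and 0.328). Nfil3, a gene of a transcriptional repressor, had a region with 14.7 ± 4.82 CPM in male VAT Tregs and 11.0 ± 1.63 CPM in those of females, against 4.03 ± 0.382 CPM in spleen Tregs (1.87 ± 0.26 and 1.43 ± 0.27, adjusted p = 1.16e-09 and 6.6e-05).

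Of 77 regions of 11 T cell and Treg markers, 2 were higher and 3 lower in male against female VAT Tregs, 6 and 3 in male VAT against spleen Tregs, 4 and 0 in female VAT against spleen Tregs, and 19 and 8 in male VAT Tregs against CD4 cells. The shares lower were 3.9%, 3.9%, 0% and 10.4% in that order, against 1.21%, 2.09%, 0.197% and 2.51% of all regions. The shares higher were 2.6%, 7.79%, 5.19% and 24.7% in that order, against 2.04%, 4.64%, 1.18% and 5.18% of all regions, with medians of -0.09, 0.04, 0.13 and 0.12. Without male VAT Treg replicate 1 these were 0 and 4, 0 and 5, 5 and 0, and 7 and 3.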

How the data were processed

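ATAC-seq was measured in 8 libraries, 2 for each of 4 groups. The authors deposited raw counts per region, with no normalisation; the build is GRCm38 (mm10), and Subread 1.6.2, HOMER 4.9, featureCounts and limma are named without their roles, per the submitters' processing notes. How regions were called, and whether starts count from 0 or 1, is not given in the sources used here; coordinates are as deposited. The 62205 entries were reduced to 46624 distinct regions, and 46512 on chromosomes 1 to 19, X and Y with a gene were used, of which edgeR's filterByExpr kept 45709, all 28 IRF regions among them. Gene bodies, starts and promoter sequences are RefSeq's for GRCm38.p6; 18560 of 19714 gene identifiers matched, and all 8 IRF genes had promoters there. The tables used give no exons, so introns and exons are not told apart.

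Counts were fitted together with edgeR 4.0.16 (quasi-likelihood, TMM scaling, R 4.3.3), 1 coefficient for each group, leaving 4 residual degrees of freedom, and calls have a Benjamini-Hochberg adjusted p under 0.05. For log2 fold changes, ± gives a standard error approximated from the F statistic, from which the 95% interval is built, and the ± after CPM is the SD of 2 libraries unless said. The low counts of short regions limit their precision. Alternatives were DESeq2 1.42.0 (size factors, and its Wald test), loess offsets (limma 3.58.1), TMM on short or on broad regions, no filter, a replicate block, and leaving out each library. The diffSpliceDGE test and the list counts without male VAT Treg replicate 1 were added after the values were seen. On simulated counts with 200 changed regions the fit was checked. Replicates of each group differed by more than sampling noise. The replicate numbers did not pair the libraries: the correlation of same-numbered deviations lay between -0.146 and 0.0666. Members and lists were chosen with earlier results of these data known. Regions described with all libraries are those called in any comparison and the highest region of each gene; from each list, up to 3 genes per comparison with the smallest adjusted p could be named. The Irf3 region 14.4 kb, the Irf1 region 6.0 kb and the Irf4 region 37.1 kb from their starts, and the Irf3 and Irf9 promoter regions, were added after their values were seen. Results for some genes of the lists are not reported here.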

Additional observations from a re-analysis of the deposited data

How the results depend on the processing

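The call of the Irf8 region 20.9 kb before the start between male and female VAT Tregs held under all 15 alternatives; the other 7 calls on IRF regions were each lost under at least 1. IRF regions called higher in male than in female VAT Tregs numbered 1, and 2 with DESeq2 size factors or no low-count filter, the other being 27.0 kb before the Irf8 start, with 1 to 3 when single libraries were left out; those called lower numbered 0, and 0 to 3 with a library left out, the 3 being without male VAT Treg replicate 1. Against spleen Tregs, 2 were higher in male VAT Tregs, 1 with TMM on short regions, 1 with the replicate block, 0 by DESeq2's Wald test and 0 to 2 with a library left out, while 0 were lower, 3 with TMM on short regions and 0 to 2 with a library left out. In female VAT Tregs 1 was lower than in spleen Tregs, and 0 with loess offsets, TMM on short regions or the Wald test, and 0 to 1 with a library left out. Against CD4 cells 4 were higher in male VAT Tregs, 3 with TMM on short regions, 1 by the Wald test, and 0 to 5 with a library left out. Over all regions, calls higher and lower were 934 and 555 (male over female VAT Treg), 2121 and 957 (male VAT over spleen Treg), 541 and 90 (female VAT over spleen Treg) and 2368 and 1146 (male VAT Treg over CD4). In the same order they were 487 and 479, 1310 and 1658, 250 and 49, and 1219 and 1998 with TMM on short regions, 354 and 152, 1113 and 249, 247 and 34, and 1252 and 608 by the Wald test, and 235 and 1096, 716 and 993, 659 and 148, and 844 and 800 without male VAT Treg replicate 1. TMM on short regions moved the median log2 fold change of all regions to -0.09 (male over female VAT Treg), -0.17 (male VAT over spleen Treg), -0.07 (female VAT over spleen Treg) and -0.25 (male VAT Treg over CD4). DESeq2's Wald test also lost the calls 28.7 kb past the Irf4 start (adjusted p = 0.069), 27.0 kb before the Irf8 start against spleen Tregs (0.102) and CD4 cells (0.0608), 20.9 kb before it against CD4 cells (0.0787) and spleen Tregs (0.24, in females), and 10.9 kb before it against spleen Tregs (0.183). No direction was reversed among the values of the 5 called regions that had passed. With the replicate block, the pairing changed no other call of these regions than that 10.9 kb before the Irf8 start; the numbers share no label beyond the replicate. The causes were not tested. Regions with under 10 fragments in a group's library cannot show small differences.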

Other observations

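Regions of other genes with the profile most like the called IRF regions over the 8 libraries were looked up, as a description with no test; the libraries share depth and groups. For the Irf4 region 4.9 kb past the start, the short regions with the highest Pearson r of log2 CPM were at Tgfbr2 (0.988), the gene of a TGF-beta receptor chain, and at Huwe1, Dnajb13, Ccdc162 and Ston2 (0.983 to 0.986), and 198 of 16360 short regions had an r over 0.9. The Tgfbr2 region had 9.57 and 5.12 CPM in male VAT Tregs, against 4.09 and 5.28 in female VAT Tregs, 3.64 and 5.02 in spleen Tregs and 1.54 and 1.30 CPM in CD4 cells.

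For the Irf8 region 20.9 kb before the start, the broad regions most like it were at Dusp4 (r = 0.967), the gene of a phosphatase that acts on MAP kinases, at Otud1 (0.965), a deubiquitinase gene, and at Tyw3, Gphn and 2610307P16Rik (0.948 to 0.951), and 32 of 29344 broad regions had an r over 0.9. The Dusp4 region had 27.7 and 22.8 CPM in male VAT Tregs, against 16.6 and 16.1 in female VAT Tregs, 19.5 and 20.1 in spleen Tregs and 18.9 and 17.3 CPM in CD4 cells, with the male VAT Treg libraries the 2 highest and the female ones the 2 lowest.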
